A study of Canis lupus familiaris with 8 samples.

Results

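Transcripts of 3 granzymes (GZMA, GZMB and GZMK), of perforin (PRF1) and of FAS ligand (FASLG) were followed in canine TCRαβ+ T cells from blood. These are 5 of the 20257 genes in the count tables. Their rows were taken by gene symbol, whatever their values. Their identifiers in the tables are ENSCAFG00000006735 (GZMA), ENSCAFG00000025287 (GZMB), ENSCAFG00000018379 (GZMK), ENSCAFG00000014071 (PRF1) and ENSCAFG00000014678 (FASLG). No other symbol in the tables starts with GZM, so further granzymes were not analysed here.

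Cytotoxic lymphocytes kill a bound target cell by 2 routes. In the first, secretory granules are emptied into the contact zone, perforin opens pores in the target membrane, and granzymes pass through to cleave proteins inside. GZMB cuts after aspartate and activates caspases, whereas GZMA and GZMK are tryptase-like and cut after lysine or arginine. In the second, FAS ligand on the killer cell binds the death receptor FAS on the target. In blood these genes are best known from effector CD8 T cells and NK cells, and also from a minority of CD4 T cells.

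The cells came from 4 healthy Beagles. The only female was dog 1, aged 5 years, and the males were dogs 2 and 3, both aged 7 years, and dog 4, aged 9 years. T cells were sorted from blood mononuclear cells by TCRαβ surface staining, frozen, thawed together and sequenced from their 5′ ends in a single run, with 1 transcriptome and 1 receptor library per dog. No animal was treated, and every group below is a set of cells within these libraries, so the age, sex and library of a dog cannot be told apart.

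After filtering, 31909 cells remained (7096, 8454, 8109 and 8250 in dogs 1 to 4), with a median of 3599 to 3931.5 UMIs (unique molecular identifiers, each standing for 1 captured transcript) per cell. A cell was called single-positive for CD8A (CD8A sp) with at least 1 UMI of CD8A and none of CD4, and CD4 sp with the reverse. The CD8A sp gate held 6427 cells (691, 1427, 2280 and 2029 per dog) and the CD4 sp gate 13247 (3658, 3629, 2716 and 3244). A further 725 cells held both transcripts (dp) and 11510 held neither (dn). Because a transcript can be missed at this depth, dn cells are cells without a CD4 or CD8A UMI and not cells without the protein. Between 87 and 120 cell barcodes were shared by any pair of libraries.

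The sort was checked against marker lists. Summed levels of 5 T cell genes were 2703 to 2905 CPM (UMIs of the gene per 1000000 UMIs of the cell group) in CD8A sp and 2782 to 3166 CPM in CD4 sp cells. Of the B cell genes, CD79A stood at a mean of 9795 CPM in CD8A sp and 9726 CPM in CD4 sp cells, while MS4A1 and CD79B had means of 1.89 CPM or less and PAX5 was at 0. S100A8 reached 1614 and 2219 CPM, but the neutrophil genes S100A12 and CSF3R were at 0, as was the monocyte gene CSF1R. Platelet PPBP was at 0 in both gates.

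All 5 genes were far higher in CD8A sp than in CD4 sp cells, in each of the 4 dogs and without overlap between the gates. The share of all genes without such overlap was not counted. All 5 passed the test as higher and none as lower, where 7.51% of the 10118 genes tested were higher and 6.59% were lower. The test was edgeR's quasi-likelihood test on UMIs summed per dog and gate, with Benjamini-Hochberg adjustment over all genes tested. The separation was widest for GZMA and GZMB and narrowest for GZMK.

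GZMA stood at 199, 161, 175 and 379 CPM in the CD8A sp cells of dogs 1 to 4 and at 0.281, 0.515, 0.883 and 1.11 CPM in their CD4 sp cells. Dog 4 was the highest in both gates. The difference was 8.36 ± 0.42 (log2 fold change ± SE, adjusted p = 5.18e-06). GZMB was at 1268, 1049.8, 1455 and 1741 CPM in CD8A sp and at 2.81, 8.82, 11.3 and 10.3 CPM in CD4 sp cells, a log2 fold change of 7.38 ± 0.39 (adjusted p = 6.95e-06). In both granzymes the lowest CD8A sp value was many times the highest CD4 sp value.

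GZMK differed in degree. It was at 411, 834, 866 and 612 CPM in CD8A sp cells and at 24.2, 91.2, 139 and 144 CPM in CD4 sp cells. The log2 fold change was 2.77 ± 0.48 (adjusted p = 0.00428), the smallest of the 5. Of all GZMK UMIs in a library, 59.9% ± 2.65 (SD, n = 4) were in CD8A sp cells and 17.5% ± 3.99 in CD4 sp cells, against 91.2% and 0.606% for GZMA and 88.4% and 1.15% for GZMB.

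Perforin, the pore former, was measured at 93.7, 129, 173 and 215 CPM in CD8A sp and at 1.97, 12.8, 13.1 and 20.3 CPM in CD4 sp cells (log2 fold change 3.68 ± 0.50, adjusted p = 0.00126). FAS ligand was at 60.8, 67.3, 103.5 and 124 CPM in CD8A sp and at 2.04, 4.70, 9.53 and 10.98 CPM in CD4 sp cells (3.73 ± 0.43, adjusted p = 0.000455). Dog 1 had the lowest CD4 sp level of all 5 genes, and in CD8A sp cells the lowest PRF1, FASLG and GZMK. Genes known from NK cells moved in the same direction between the gates. IL2RB was at a mean of 768 against 167 CPM, NCR1 at 15.3 against 0.0441 CPM and KLRF1 at 0.192 CPM against 0, and the sum of these 3 ranged over 626 to 874 CPM in CD8A sp and 76.7 to 238 CPM in CD4 sp cells. Their part in the result was not tested.

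**Figure D1:**
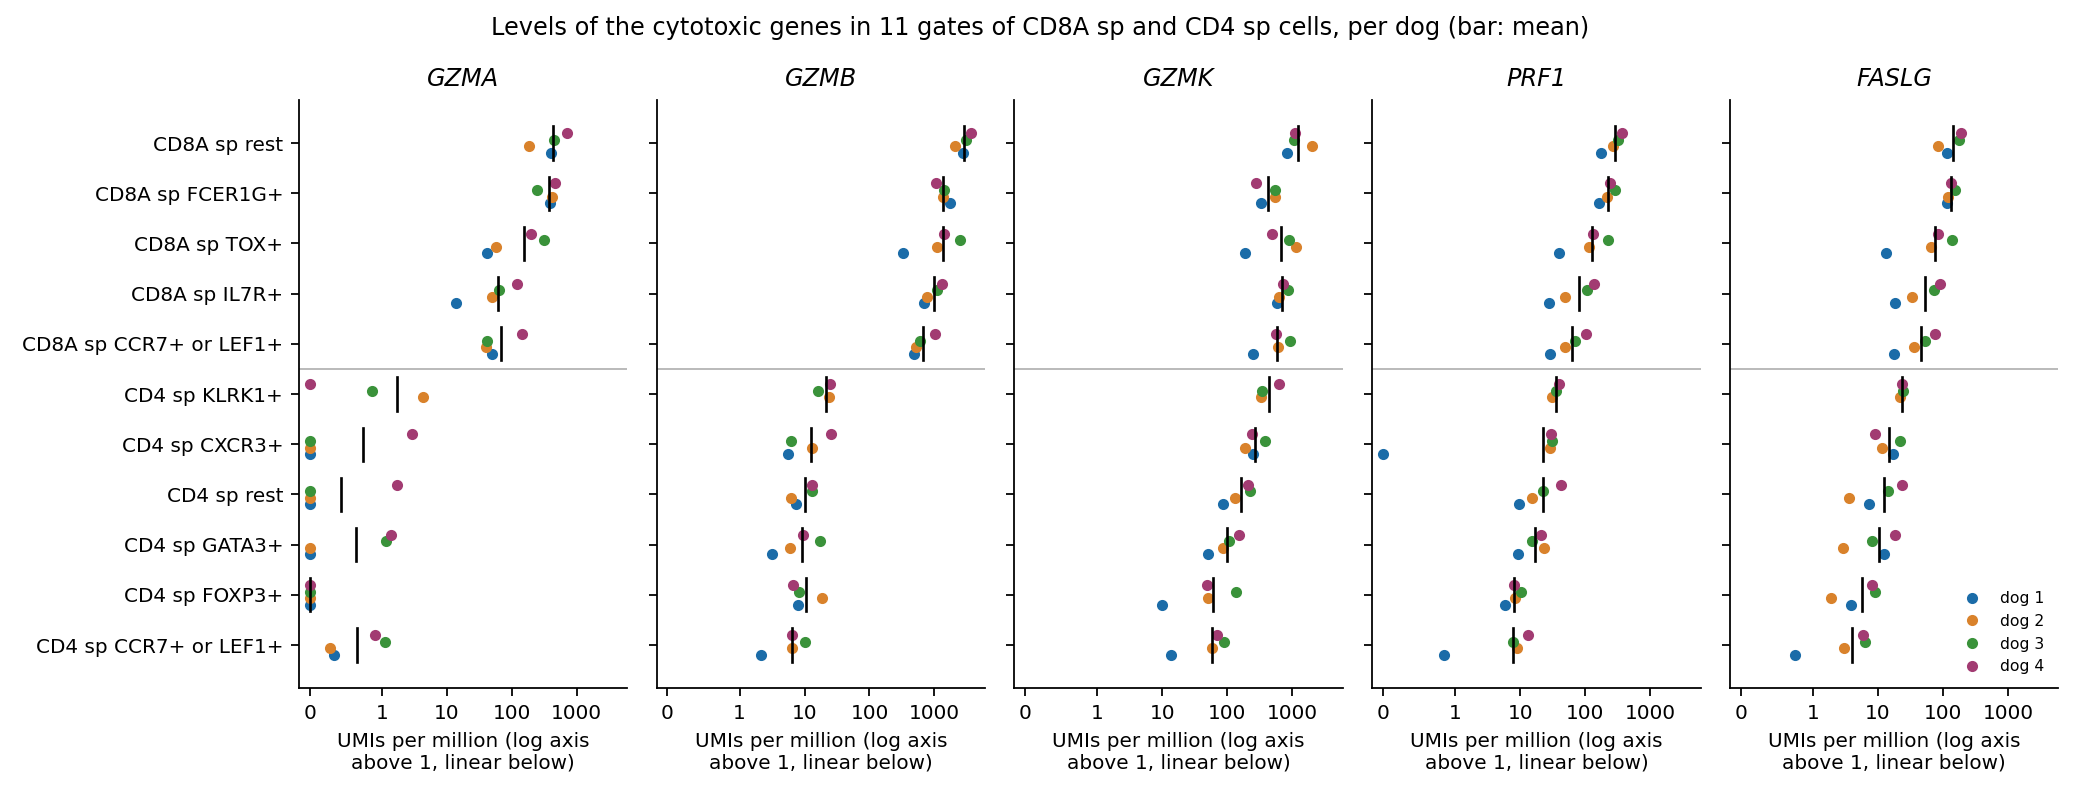
Level of each gene in CPM (log axis above 1, linear below) in 11 disjoint cell groups inside the CD8A sp and CD4 sp gates, with 1 point per dog and a bar for the mean. Rest stands for the remaining cells of a gate, and KLRK1+ cells have 3 dogs. GZMA and GZMB leave a gap between the lowest CD8A sp group and the highest CD4 sp group, whereas the GZMK points of the 2 gates overlap.

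The share of cells with at least 1 UMI was also compared. In CD8A sp cells it was 25.1% ± 6.17 for GZMA, 59.6% ± 5.47 for GZMB, 54.9% ± 12.3 for GZMK, 32.7% ± 7.26 for PRF1 and 25.0% ± 7.00 for FASLG (mean ± SD, n = 4 dogs). In CD4 sp cells it was 0.224%, 2.35%, 8.42%, 4.26% and 2.56%, in the same order. CD4 sp cells with both CCR7 and LEF1 served as a reference, a naive-like set of 4204 cells with a median of 4002 UMIs. They held the 5 genes in 0.204%, 1.76%, 3.97%, 2.06% and 1.38% of cells. GZMK-positive cells of this set held a mean of 4.07 GZMK UMIs, and 2.31% of the set held at least 2. How much of these shares is free RNA in the droplets was not tested. The median depth was 3586.5 to 3932 UMIs in CD8A sp and 3747 to 4091.5 UMIs in CD4 sp cells. CD8A sp cells were the deeper ones in dog 1 and the shallower ones in dogs 2 to 4. The CD4 sp shares of GZMA and GZMB lay within about an SD of those of the reference set. The CD4 sp shares of PRF1 (4.26% against 2.06%) and FASLG (2.56% against 1.38%) exceeded the reference by less than their own SD over dogs. That SD ignores that both sets come from the same dogs, and the reference cells are themselves part of the CD4 sp gate. Compared within dogs, the shares of GZMB, PRF1 and FASLG were above the reference in every dog, but that of GZMA was not. No paired test of the shares was run, and no expression is read from them. The tests inside the CD4 sp gate below did not compare these genes with this background.

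After every cell was thinned to 2000 UMIs, the CD8A sp shares were 20.6%, 52.5%, 47.6%, 22.5% and 16.4%, against 25.3%, 59.6%, 55.9%, 33.7% and 26.1% in the same cells before thinning. Thinning kept 633, 1264, 2012 and 1803 CD8A sp cells and 3272, 3207, 2445 and 2858 CD4 sp cells of dogs 1 to 4. The CD4 sp shares became 0.0962%, 1.28%, 6.34%, 2.02% and 1.21%. A positive CD8A sp cell held a mean of 1.85 UMIs of PRF1 and 1.42 of FASLG, compared with 9.28 for GZMB, 4.98 for GZMK and 3.58 for GZMA. A GZMK-positive CD4 sp cell held 4.74 UMIs, close to the CD8A sp value, whereas the other 4 genes gave 1.10 to 1.44 UMIs per positive CD4 sp cell. Cells with both CD4 and CD8A were intermediate in their shares, with GZMB in 35.3% and GZMK in 42.8% of cells. They were not intermediate in UMIs per positive cell, at 10.7 for GZMB. These cells were also deeper, with a median of 5418 to 5955 UMIs per dog. No doublet caller was run, and whether doublets were among them was not tested. Cells with neither held GZMB in 4.33% and GZMK in 11.5%.

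Within the CD8A sp gate, cells were placed in order into FCER1G+ cells (FCER1G encodes the Fc receptor gamma chain, carried by innate-like T cells), then CCR7+ or LEF1+ cells (genes of naive and central memory cells), TOX+ cells, IL7R+ cells and the remainder. The remainder held the highest mean of all 5 genes. There GZMB reached 2879 ± 632 CPM, above and without overlap with the group next by mean, GZMK 1243 ± 508 CPM, GZMA 434 ± 217 CPM, PRF1 284 ± 82.2 CPM and FASLG 141 ± 50.7 CPM (SD, n = 4). The remainder did overlap for GZMB with TOX+ cells, which ranged up to 2499 CPM, while its own lowest dog was at 2076 CPM. FCER1G+ cells came second for GZMA (381 CPM), GZMB (1375 CPM), PRF1 (228 CPM) and FASLG (131 CPM), but the sixth of the 11 groups for GZMK (422 CPM). The group just ahead for GZMK was a CD4 sp group averaged over 3 dogs. Apart from the gap above GZMB in FCER1G+ cells, and the gap between the CD8A sp and the CD4 sp groups for GZMA and GZMB, neighbours in the order overlapped between dogs. The share of all genes with such gaps was not counted. The gates use detection of 1 UMI, so the remainder is also where CCR7, LEF1, TOX, IL7R and FCER1G were all missed. It was also the shallowest group, with a median of 3012 UMIs. The medians were 3721 in FCER1G+, 4254.5 in CCR7+ or LEF1+, 4058.5 in TOX+ and 4046 in IL7R+ cells.

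In the CD4 sp gate the groups were FOXP3+ (regulatory T cells), CCR7+ or LEF1+, KLRK1+ (the activating receptor NKG2D), GATA3+, CXCR3+ and the remainder. KLRK1+ cells, with at least 20 cells in 3 dogs, had the highest CD4 sp mean of all 5 genes. For GZMA this rested on 5, 1 and 0 UMIs in dogs 2 to 4, and no expression is read from it. KLRK1+ cells held GZMK at 433 ± 164 CPM (SD, n = 3), the fifth of the 11 groups and next to FCER1G+ CD8A sp cells. That mean leaves out dog 1, so the order of these groups is not read. KLRK1+ cells ranged over 329 to 623 CPM, and FCER1G+ cells of all dogs over 277 to 540 CPM. CXCR3+ cells followed with GZMK at 264 ± 85.2 CPM. FOXP3+ cells held GZMB at 10.4 CPM and PRF1 at 8.13 CPM. GZMA was found in 0 of 97, 191, 192 and 142 FOXP3+ cells, which allows a share of cells with a GZMA UMI of up to 3.09%, 1.57%, 1.56% and 2.11%. This limit covers counting error only and does not bound the share of cells that express GZMA.

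CD8A sp cells with TRAV9-11 joined to TRAJ28, the receptor alpha chain that dominates in MAIT-like cells, numbered 675 (153, 181, 244 and 97). GZMB was detected in 92.8%, 83.4%, 84.0% and 99.0% of them, GZMA in 49.9% ± 8.79 and GZMK in 79.9% ± 8.65 (SD, n = 4). The study also reported this pairing in part of its effector memory and innate-like effector CD8A cells, so the set need not be MAIT-like cells alone.

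FCER1G+ cells were then compared with all other CD8A sp cells. None of the 5 genes passed the test without the dog as a block, where 1.03% of the 8505 genes tested were higher and 0.882% were lower. At an unadjusted p under 0.05 the count was 4 of 5 (3 higher and 1 lower), beside 6.44% of all genes higher and 5.9% lower, and DESeq2 called 0, beside 1.2% of its genes higher and 1.1% lower. With the dog as a block, 3 were higher and 1 was lower, where 2.79% of all genes were higher and 2.62% were lower. GZMA was at 387, 422, 244 and 469 CPM in FCER1G+ and at 145, 68.6, 162 and 342 CPM in FCER1G- cells, higher in 4 of 4 dogs (log2 fold change 1.05 ± 0.38, adjusted p = 0.245, blocked 0.0285).

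GZMK ran the other way. It was at 333, 539, 540 and 277 CPM in FCER1G+ and at 434, 939, 929 and 752 CPM in FCER1G- cells, so every dog was lower in FCER1G+ cells (log2 fold change -0.89 ± 0.26, adjusted p = 0.134, blocked 0.00136). PRF1 (228 against 132 CPM, 0.76 ± 0.27, adjusted p = 0.229, blocked 0.00465) and FASLG (131 against 76.6 CPM, 0.72 ± 0.27, adjusted p = 0.269, blocked 0.0197) were higher in 4 of 4 dogs. GZMB split by dog, at 1711 and 1344 CPM in the FCER1G+ cells of dogs 1 and 2 against 1141 and 946 CPM, but at 1387 and 1061 CPM in dogs 3 and 4 against 1468 and 2026 CPM. Its log2 fold change was -0.05 ± 0.21 (adjusted p = 0.993), and 0.28 without dog 4.

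CD8A sp cells with CCR7 or LEF1 were compared with those that held neither. GZMB was at 614, 607, 588 and 948 CPM with either gene and at 1635, 1326, 1885 and 2017 CPM with neither. It fell by 1.26 on the log2 scale (± 0.16, adjusted p = 0.00382, blocked 2.49e-08), the single call of the 5, where 0.435% of 8735 genes tested were lower and 0.904% were higher. The call was lost without dog 1 (adjusted p = 0.0579) and without dog 3 (0.0586). GZMA (108 against 287 CPM, log2 fold change -1.36, adjusted p = 0.108, blocked 1.14e-05), PRF1 (86.1 against 185 CPM, -1.04, adjusted p = 0.0721, blocked 6.99e-07) and FASLG (53.0 against 107 CPM, -0.92, adjusted p = 0.117, blocked 9.78e-06) had lower values in 4 of 4 dogs. With the block, all 5 genes were lower, where 6.53% of genes tested were lower and 6.3% were higher.

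GZMK was the only member not lower in every dog here, and no test compared its change with those of the other members. It was at 255, 553, 889 and 464 CPM with CCR7 or LEF1 and at 499, 1009, 854 and 664 CPM with neither, and dog 3 went the opposite way to the others (-0.41 ± 0.31, adjusted p = 0.590, blocked 0.0105). Median depth was 4072 to 4434.5 UMIs in cells with either gene and 3347.5 to 3803.5 UMIs in cells with neither.

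In the CD4 sp gate, KLRK1+ cells (26, 401, 390 and 348 per dog) were compared with KLRK1- cells. GZMK was at 186, 292, 379 and 404 CPM in KLRK1+ and at 22.8, 58.8, 84.1 and 106 CPM in KLRK1- cells. It was the only one of the 4 members tested to pass (log2 fold change 2.32 ± 0.37, adjusted p = 0.0334, blocked 2.74e-22), where 0.138% of 9452 genes tested were higher and 0.233% were lower. Without dog 2 or dog 3 the adjusted p was 0.261 or 0.280.

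GZMB was at 7.76, 24.5, 28.3 and 13.7 CPM in KLRK1+ and at 2.76, 6.28, 7.39 and 9.82 CPM in KLRK1- cells (1.74 ± 0.37, adjusted p = 0.0703, blocked 3.47e-06). The KLRK1+ value of dog 1 came from 26 cells, and no expression is read from it. PRF1 (1.60 ± 0.52, adjusted p = 0.184, blocked 1.47e-06) and FASLG (1.77 ± 0.48, adjusted p = 0.128, blocked 6.17e-06) were listed at 0 in the 26 KLRK1+ cells of dog 1 and were higher in the other 3 dogs. With the block, 5.34% of all genes tested were higher and 5.01% were lower. GZMA was too low to be tested in this gate. KLRK1+ cells were deeper, with a median of 4548 to 5206 UMIs against 3744 to 4014.

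**Figure D2:**
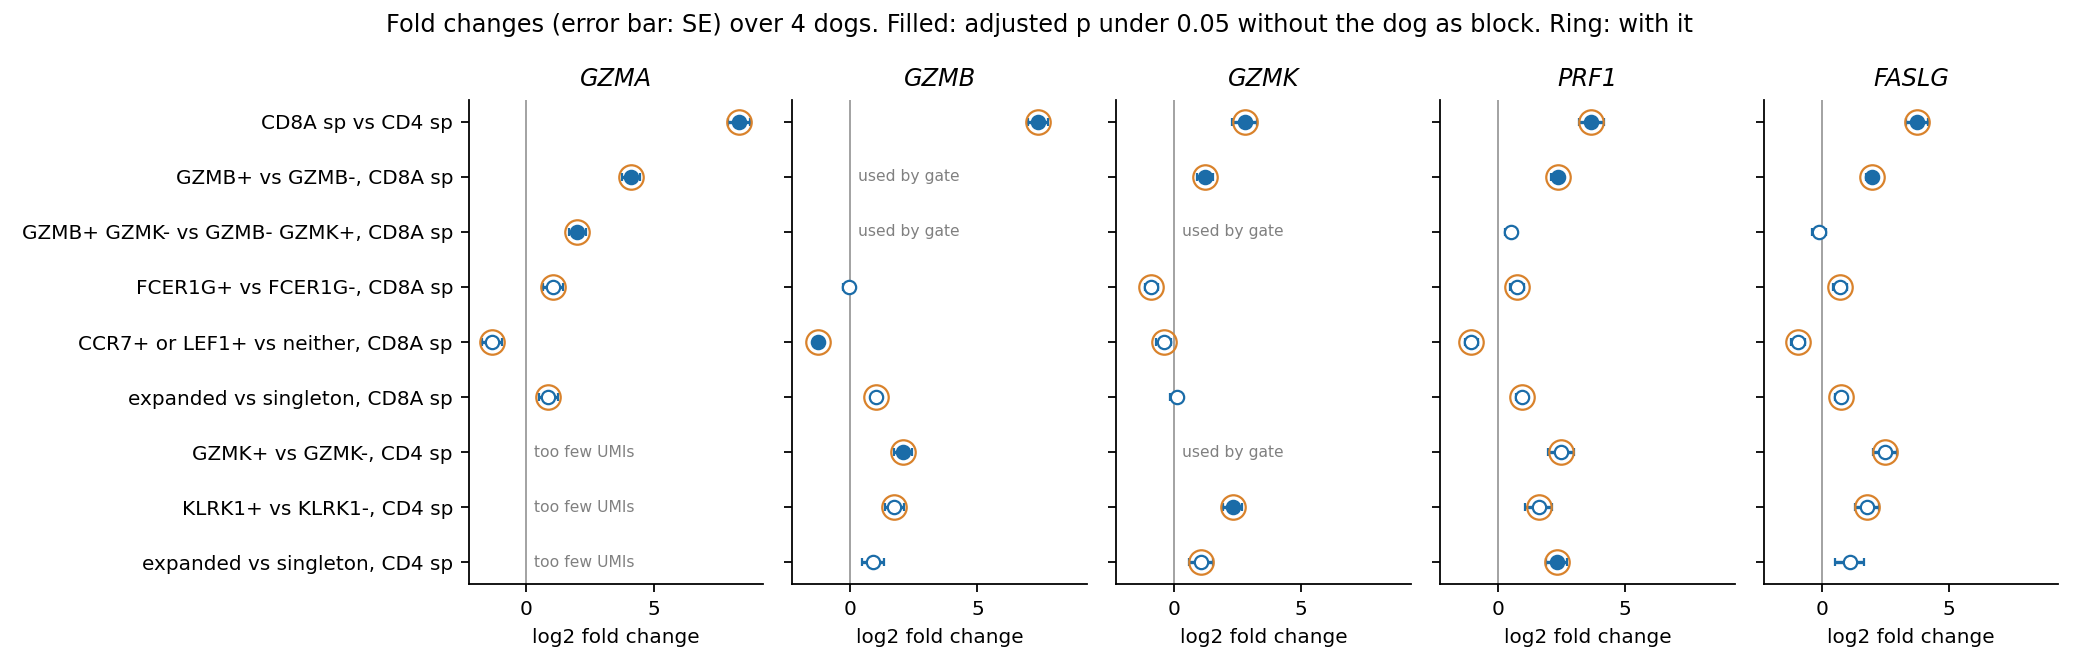
Log2 fold change of each gene in 9 comparisons of cell groups, with error bars for the SE over 4 dogs. Filled points passed the test without the dog as a block, and ringed points passed with it. GZMA and GZMB lie farthest from 0 between the gates, and GZMK lies below 0 in FCER1G+ cells while GZMA, PRF1 and FASLG lie above it.

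Detection of 1 member went with detection of the others in CD8A sp cells. In GZMB+ against GZMB- cells, all 4 of the other genes were higher, where 4.07% of the 8959 genes tested were higher and 3.34% were lower. GZMB itself set the gate and has no test. GZMA was at 361, 282, 279 and 598 CPM in GZMB+ cells and at 5.43, 23.4, 16.7 and 34.9 CPM in GZMB- cells (log2 fold change 4.11 ± 0.36, adjusted p = 0.000243).

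PRF1 followed (153, 210, 257 and 308 CPM against 22.5, 37.4, 45.5 and 68.8 CPM, 2.35 ± 0.26, adjusted p = 0.000746), then FASLG (98.2, 101, 147 and 175 CPM against 16.3, 29.3, 36.6 and 43.5 CPM, 1.98 ± 0.24, adjusted p = 0.00110). None of these 3 genes overlapped between the groups. How many of all genes tested separated in this way was not counted. GZMK was at 599, 1207, 1038 and 797 CPM in GZMB+ and at 188, 410, 601 and 321 CPM in GZMB- cells (1.21 ± 0.31, adjusted p = 0.0361), and the highest GZMB- dog passed the lowest GZMB+ dog. In the fit without the block, the GZMK call was lost without dog 2 (adjusted p = 0.185) or dog 4 (0.105). With the dog as a block and all dogs, the adjusted p of GZMK was 2.85e-06, where 9.23% of all genes tested were higher and 8.84% were lower. GZMB+ cells were the shallower ones, with a median of 3313 to 3815 UMIs against 4060 to 4240.

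Cells with only one of GZMB and GZMK were compared next. GZMB+ GZMK- cells numbered 151, 175, 232 and 361, and GZMB- GZMK+ cells 34, 205, 314 and 206. GZMA was at 319, 153, 247 and 417 CPM in the former and at 29.1, 70.2, 31.9 and 121 CPM in the latter (2.01 ± 0.34, adjusted p = 0.00361). It was the only one of the 3 genes tested to pass, where 1.35% of the 6741 genes tested were higher and 1.5% were lower. PRF1 (155 against 98.2 CPM, 0.52 ± 0.25, adjusted p = 0.351, blocked 0.0549) and FASLG (82.1 against 89.2 CPM, -0.11 ± 0.27, adjusted p = 0.924) did not pass, and the FASLG value was 0.01 without dog 1 and 0.32 in thinned cells.

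GZMK+ CD4 sp cells (93, 277, 340 and 356 per dog) were compared with GZMK- cells. GZMB was at 11.9, 24.8, 33.7 and 28.2 CPM against 2.53, 7.37, 7.53 and 8.06 CPM. The GZMK+ values rested on only 5, 32, 55 and 43 GZMB UMIs, in 4, 20, 24 and 32 cells of dogs 1 to 4. GZMB passed the test (2.09 ± 0.35, adjusted p = 0.0449, blocked 7.69e-08), where 0.189% of 9512 genes tested were higher and 0.0631% were lower without the block. In fits without the block, the adjusted p was 0.310, 0.386 and 0.109 without dogs 2, 3 and 4, and 0.0766 in thinned cells.

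PRF1 (43.4 against 8.48 CPM, 2.48 ± 0.52, adjusted p = 0.106, blocked 8.37e-09) and FASLG (23.3 against 4.73 CPM, 2.49 ± 0.46, adjusted p = 0.0652, blocked 3.75e-08) were higher in 4 of 4 dogs and passed only with the block, where 3.5% of all genes tested were higher and 1.96% were lower. In dog 1 the GZMK+ values rested on 10 PRF1 and 3 FASLG UMIs. GZMK+ cells had a median of 4158.5 to 4426.5 UMIs against 3736 to 4086.

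Per cell, the pairs were described by an odds ratio within bins of cell depth, averaged over dogs. Cells of a dog share its library, so these values carry no p. In CD8A sp cells the largest was GZMA with GZMB, at 52.7, 10.4, 13.5 and 15.8 in dogs 1 to 4. Dog 1 set its mean of 23.1, which was 13.2 without that dog. GZMB was found in 94.4% ± 2.82 of GZMA+ cells and in 47.8% ± 6.50 of GZMA- cells, and GZMA in 39.8% ± 9.01 of GZMB+ but in 3.39% ± 1.56 of GZMB- cells. A GZMA UMI thus nearly always came with a GZMB UMI, while the reverse did not hold. Positive cells held a mean of 3.58 UMIs of GZMA and 9.28 of GZMB, so GZMA is the more easily missed. The part of missed transcripts in this asymmetry was not tested.

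The remaining pairs with GZMB came next, at 8.44 with GZMK, 6.30 with PRF1 and 5.15 with FASLG. When 2 UMIs were required, the order of the first pair turned, with 5.60 for GZMK and 9.56 for PRF1. Pairs without GZMB ran from 2.79 (PRF1 with FASLG) to 4.39 (GZMA with PRF1). In CD4 sp cells the 6 pairs without GZMA had odds ratios of 2.55 to 7.36, with GZMB and FASLG at the bottom. PRF1 and FASLG had the highest mean, but dog 1 set it, with 3 cells that held both. The pair stood at 2.51, 4.95 and 1.98 in dogs 2 to 4 and at a mean of 3.15 without dog 1, where the highest of the 6 was 5.29. Pairs with GZMA rested on too few cells and are not given.

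**Figure D3:**
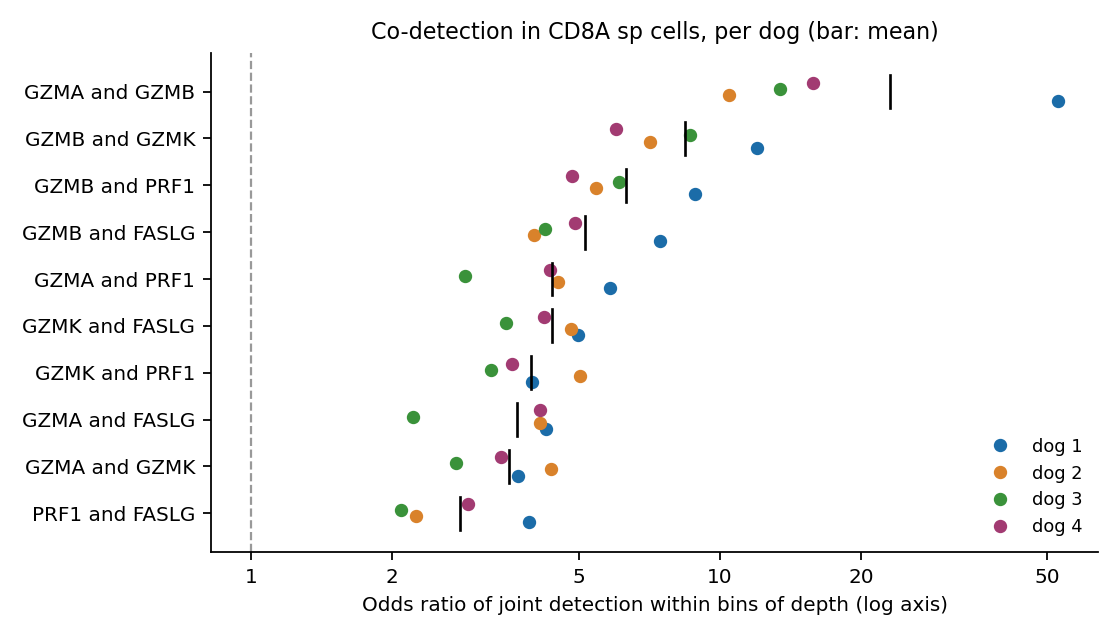
Odds ratio of detecting both genes of a pair in a CD8A sp cell, within bins of cell depth, on a log axis, with 1 point per dog and a bar for the mean. The GZMA and GZMB pair stands highest, with dog 1 at 52.7 and the other dogs at 10.4 to 15.8, and all 10 pairs lie above 1 in every dog.

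The members detected in each cell were then counted. In CD8A sp cells, 26.3% ± 7.78 held none of the 5 transcripts, 58.5% ± 8.54 held at least 2, and all 5 were found in 4.05%, 3.71%, 4.30% and 10.2% of cells of dogs 1 to 4. Dog 4 was the highest. The most frequent combinations were GZMB with GZMK (10.4%), these 2 with PRF1 (7.04%), GZMB alone (6.39%) and GZMK alone (5.94%). In CD4 sp cells, 85.5% ± 7.07 held none and 2.64% ± 1.75 held at least 2, against 0.822% ± 0.642 in the naive-like reference set. Among CD4 sp cells GZMK alone (6.07%) and PRF1 alone (2.72%) were the most frequent, and 0 of 13247 cells held all 5.

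**Figure D4:**
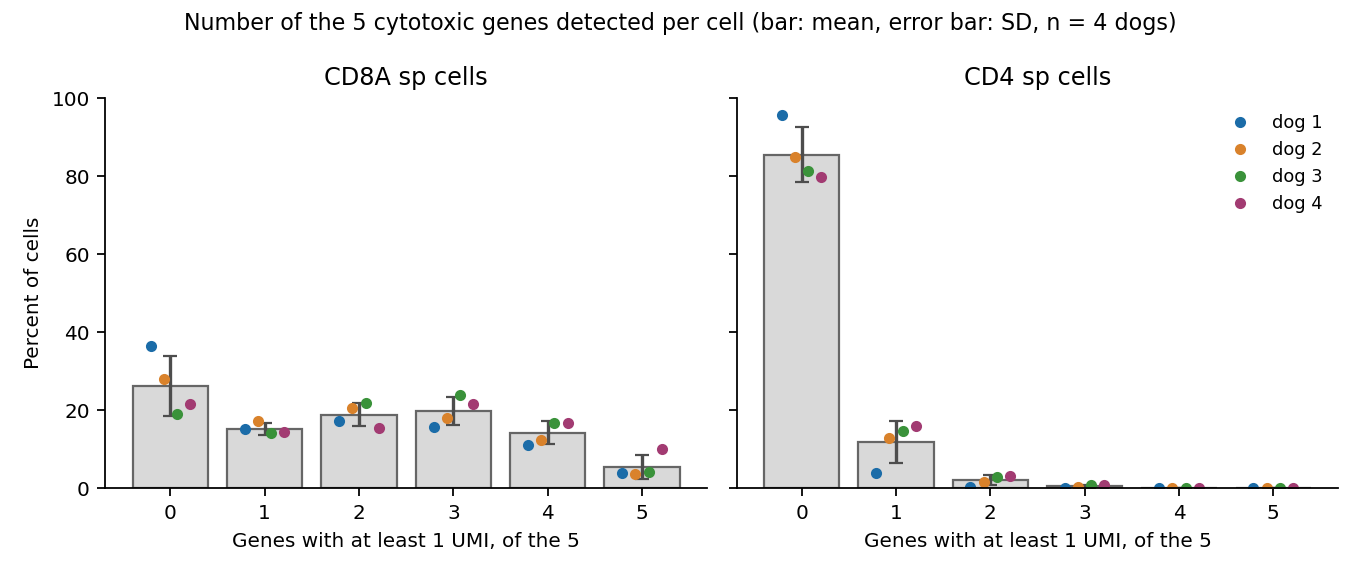
Percent of cells in which 0 to 5 of the genes were detected in each gate, with bars for the mean, error bars for the SD and 1 point per dog (n = 4). Most CD4 sp cells hold none (85.5%), whereas CD8A sp cells spread over 0 to 4 genes, and dog 4 has the largest share with all 5 (10.2%).

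The receptor libraries allowed cells of a clone to be compared. A clone was a set of cells of the same dog with the same single TRB chain (V gene, J gene and junction), and it was called expanded at 2 or more cells. In CD8A sp cells none of the 5 genes passed the test between expanded and singleton clones without the block, where 0.302% of 8290 genes tested were higher and 0.760% were lower. At an unadjusted p under 0.05 the count was 4 of 5, all higher, beside 6.51% of all genes higher and 6.83% lower. DESeq2 called 2 as higher (GZMB and PRF1), beside 0.531% of its genes higher and 1.07% lower. With the block 4 were higher, beside 2.91% of all genes higher and 3.67% lower.

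GZMB was at 1888, 1340, 1844 and 1984 CPM in expanded and at 790, 774, 495 and 1286 CPM in singleton cells (1.03 ± 0.22, adjusted p = 0.0527, blocked 0.000573). PRF1 (183 against 92.4 CPM, 0.95 ± 0.23, adjusted p = 0.0833, blocked 0.000908) and FASLG (105 against 61.6 CPM, 0.76 ± 0.22, adjusted p = 0.147, blocked 0.00538) were higher in 4 of 4 dogs. GZMA was lower in the expanded cells of dog 2 (144 against 181 CPM) and higher in the other dogs (0.86 ± 0.38, adjusted p = 0.353, blocked 0.0405). GZMK was at 480, 960, 937 and 600 CPM in expanded and at 385, 710, 815 and 764 CPM in singleton cells (0.10 ± 0.24, adjusted p = 0.932), with dog 4 the opposite way.

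Among CD4 sp cells, PRF1 was at 3.65, 27.1, 30.5 and 28.7 CPM in expanded and at 1.58, 5.56, 6.96 and 7.08 CPM in singleton clones. The expanded value of dog 1 rested on 2 UMIs in 132 cells. PRF1 was the only one of the 4 genes tested to pass without the block (2.31 ± 0.42, adjusted p = 0.0187, blocked 6.09e-06). Without the block, 2.98% of 9364 genes tested were higher and 2.36% were lower, and the PRF1 call was lost without dog 2 (adjusted p = 0.201) and dog 3 (0.106). GZMK was at 100, 149.98, 244 and 139 CPM against 16.6, 62.5, 99.9 and 135 CPM (1.06 ± 0.48, adjusted p = 0.220, blocked 0.0103, where 8.21% of all genes were higher and 7.37% were lower). The expanded cells of dog 2 included a clone of 12 cells with GZMK at 4198 CPM. The part of that clone in the GZMK contrast was not tested. GZMB (0.90 ± 0.44, adjusted p = 0.260) and FASLG (1.10 ± 0.58, adjusted p = 0.289) did not pass with or without the block. Expanded CD4 sp cells were deeper, at a median of 3923 to 4739 UMIs against 3814.5 to 3928.

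The difference between the expansion effects of the 2 gates was itself tested, and none of the 5 genes passed. Of 9311 genes tested, 0.0107% had a larger effect in CD8A sp cells and 0 a smaller one. At an unadjusted p under 0.05 the count of members was 1 (PRF1, -1.42 ± 0.49, adjusted p = 0.667, blocked 0.0681), beside 2.34% of all genes with a larger and 3.49% with a smaller effect. DESeq2 called 0, beside 0.0685% and 0.0914% of its genes, and the block called 0, beside 0.129% and 0.258%.

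Single clones differed widely. There were 73 clones with at least 10 CD8A sp cells (7, 10, 24 and 32 per dog). GZMK was found in under 10% of the cells of 17 of these clones and in over 90% of the cells of 24. GZMB was under 10% in 5 clones and over 90% in 37, with a median of 90.9%. GZMA had a median of 23.1%, with 28 clones under 10% and 2 over 90%. No clone had PRF1 or FASLG in over 90% of its cells. Positive CD8A sp cells held a mean of only 1.85 PRF1 and 1.42 FASLG UMIs. Detection alone made such a share hard to reach, so nothing is read from its absence. Pooled over dogs, GZMB had a median of 30.8% (5.26% to 100%) in the 17 clones low in GZMK and of 92.3% (18.2% to 100%) in the 24 high in GZMK. The 17 were split 2, 4, 1 and 10 over dogs 1 to 4, so most came from dog 4. The 24 were split 1, 4, 8 and 11. Clones are not replicates, and this contrast was not tested.

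The largest CD8A sp clone was of 39, 60, 146 and 119 cells in dogs 1 to 4. In dogs 1 to 3 it held GZMB in 92.3%, 91.7% and 95.9% of cells. In dog 4 it held GZMB in 20.2%, PRF1 in 10.9%, GZMA in 3.36%, FASLG in 1.68% and GZMK in 0.840% of cells, and all of its cells were FCER1G+. GZMB stood at 110 CPM in that clone and at 1849 CPM in the other CD8A sp cells of dog 4. The second clone of dog 4, of 108 cells, held GZMB in 94.4%, GZMA in 88.0% and GZMK in 63.9% of cells. Without the largest clone of each dog, the log2 fold change of GZMB in FCER1G+ cells was 0.03.

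Among CD4 sp cells, 0, 11, 6 and 29 clones had at least 10 cells. GZMK was found in 100% of a clone of 12 cells in dog 2, at 4198 CPM, and in 96.4% of a clone of 28 cells in dog 4, at 699 CPM. In the largest CD4 sp clones of dogs 2 to 4 (40, 56 and 71 cells) GZMK was in 15.0%, 3.57% and 0% of cells, while PRF1 was in 17.5%, 17.9% and 12.7%.

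**Figure D5:**
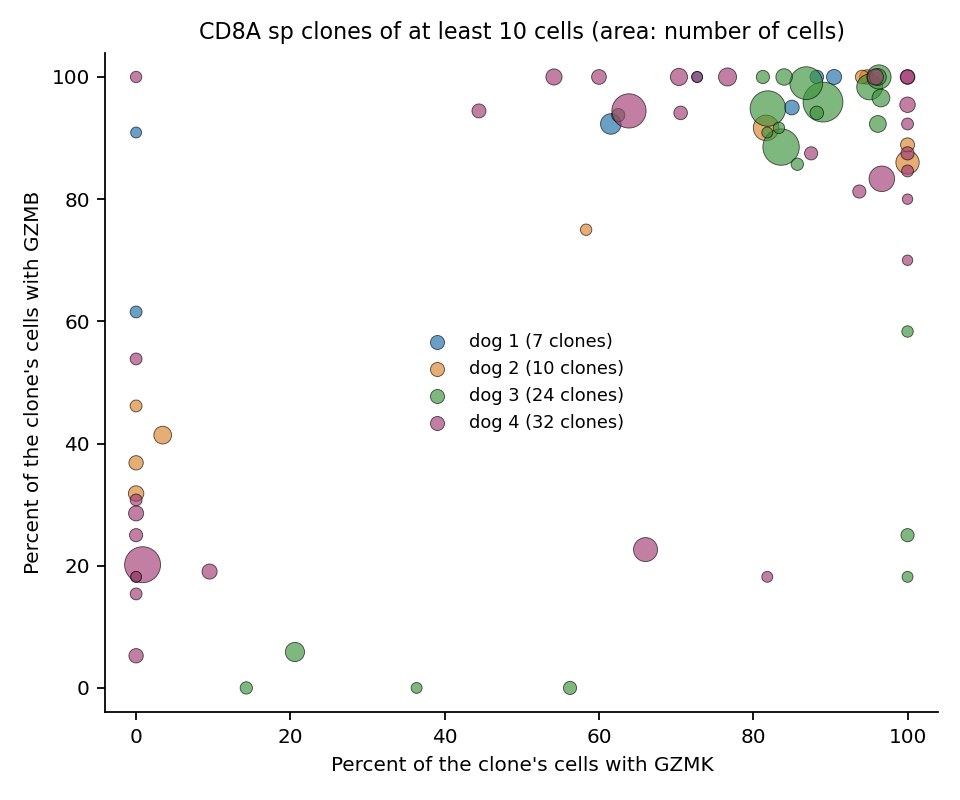
Each point is a clone with at least 10 CD8A sp cells (73 in all), coloured by dog, with its area set by the number of cells. The x axis gives the percent of its cells with GZMK and the y axis the percent with GZMB. Pooled over dogs, the 24 clones with over 90% on the x axis have a median GZMB share of 92.3%, and the 17 under 10% have one of 30.8%. Of these 17, 10 are from dog 4.

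A list of 48 other genes of the pathway was followed, of which 41 have a row. GZMM, GZMH, GNLY, NKG7, CTSL, FADD and ID2 were not analysed here. Between CD8A sp and CD4 sp cells 8 of the 41 tested were higher and 9 were lower, with a median log2 fold change of -0.02 beside -0.00455 over all genes tested. Of the transcription factors, 4 were higher and 3 lower of 11. The highest were ZEB2 (5.31), EOMES (4.18) and TBX21 (2.87), which drive effector programmes, and ID3 (-1.97) and LEF1 (-1.56), known from naive cells, were lower. The cathepsin CTSW, a protease of cytotoxic cells, was higher by 4.60, and SERPINB1, an inhibitor of neutrophil-type serine proteases, and CTSH were both lower (-1.66). Of 12 genes of granule sorting and release, 0 were higher and 1 was lower, beside 7.51% higher and 6.59% lower over all genes tested.

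In GZMB+ CD8A sp cells, 8 of 39 tested were higher and 3 lower (median 0.13 beside -0.00835 over all genes). TBX21 (2.07), ZEB2 (2.05), EOMES (1.82) and CST7 (1.13), which encodes an inhibitor of granzyme-activating cathepsins, were higher, and ID3 (-2.25), LEF1 (-2.10) and TCF7 (-1.82) were lower. In GZMB+ GZMK- cells against GZMB- GZMK+ cells, CST7 (0.96) was higher and ID3 (-2.14), LEF1 (-1.07) and EOMES (-0.85) were lower, of 35 tested. EOMES was thus lower on the GZMB side of that comparison.

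FCER1G+ cells had CTSW (0.92), EOMES (0.80), SERPINB9 (0.68), the inhibitor of GZMB, and CST7 (0.59) higher and ID3 (-1.42) and the death receptor FAS (-0.72) lower, of 38 tested. Cells with CCR7 or LEF1 had ID3 (2.29) and TCF7 (0.88) higher, of another set of 38 tested. In these cells CST7 (-1.10), SERPINB9 (-0.75), EOMES (-0.61) and RAB27A (-0.43), which docks granules, were lower. In CD4 sp cells EOMES was higher both in KLRK1+ cells (3.20, 1 of 41 higher and 2 lower) and in GZMK+ cells (4.21, 2 of 40 higher and 0 lower). In GZMK+ cells FAS was the other (0.59). Expanded CD8A sp clones had TBX21 (1.08) and CST7 (0.73) higher and LEF1, BACH2 and ID3 lower, of 39 tested. Over all genes tested there, 0.302% were higher and 0.760% were lower. Expanded CD4 sp clones had 5 higher and 5 lower, of 40 tested, beside 2.98% and 2.36% over all genes tested. TBX21 (1.33), TNFRSF1B (0.98), IGF2R (0.61) and RAB27A (0.57) were among the higher. BACH2 (-1.89), LEF1 (-1.64), ID3 (-1.19) and the protease CTSW (-1.05) were among the lower.

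The genes most like each member were ranked by the Pearson correlation of log2(CPM + 10) over 43 sums, 11 cell groups in up to 4 dogs, among 5524 genes. These sums share libraries and gates, so the values are a description. For GZMA they were ITGAM (0.980), ZEB2 (0.969) and NCR3 (0.959), and for GZMB they were CD8A (0.982), which set the gates, NCR3 (0.970) and SLAMF7 (0.964). PRF1 was most like ZEB2 (0.956), FASLG (0.953) and ANKRD50 (0.951), and FASLG most like TBX21 (0.963), ZEB2 (0.954) and PRF1 (0.953). GZMK was the least like the others. Its nearest genes were CCL4 (0.869), SLAMF7 (0.844) and ITM2C (0.842), and its correlation with the other members was 0.690 to 0.816, against 0.897 to 0.953 among those 4.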

How the data were processed

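The authors sorted TCRαβ+ T cells from 4 dogs, prepared 5′ transcriptome and receptor libraries, and deposited a matrix per dog of raw counts of UMIs, made with Cell Ranger 5.0.1 on CanFam 3.1, together with tables of receptor chains per cell barcode. The counts were not normalized. The gene list deposited for dog 1 has 27980 lines for 20257 rows, so its rows were read with the list shared by dogs 2 to 4. Read so, its log row totals correlated at 0.991, 0.990 and 0.989 with those of dogs 2, 3 and 4. Symbols carried by more than 1 row (17) were kept apart by identifier.

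Cells with 500 to 20000 UMIs and at most 10% UMIs from 13 mitochondrial genes were kept, as in the study. No doublet caller was run, and leaving out cells with more than 1 TRB chain was an alternative. Gates required at least 1 UMI. A group needed 20 cells in a dog to give a level. Levels are UMIs of the gene per 1000000 UMIs of the group (CPM), and no scaling by gene length applies to 5′ tags. Shares have exact Clopper-Pearson 95% intervals and a floor of 3 counts, for counting error only.

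Dogs were the replicates. UMIs were summed per dog and cell group and tested with edgeR 4.0.16 (R 4.3.3, limma 3.58.1; quasi-likelihood test, TMM, filterByExpr, Benjamini-Hochberg over all genes, threshold 0.05). Both groups of a comparison come from the same dogs, because the labels give each library to a numbered animal. Deviations of the sums of the same dog correlated at 0.584, 0.630, 0.740 and 0.595 over 5502 genes. Adjusted p values given as "blocked" add the dog to the model. Alternatives were DESeq2 1.42.0, no filter on low counts, cells thinned to 2000 UMIs, gates at 2 UMIs, other clone definitions, and leaving out each dog. Leaving out the largest CD8A sp clone of each dog was chosen after seeing the data. In simulated CD8A sp and CD4 sp sums, 10, 29, 50 and 50 of 50 genes changed by 1.5, 2, 4 and 8 times were called, with 6 false calls among 10224 genes tested. These sums had a fixed dispersion of 0.05 and no dog effect, and changes were set only in genes with an expected mean above 50 UMIs. The real sums of a dog correlated, so the simulated counts do not give the recovery or false calls in the data.

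Genes named are the 5 members, the called genes of the pathway list with the largest changes (at most 4 in each direction), and the 3 genes most like each member with a mean of at least 20 CPM. The members and lists were chosen with earlier results of these data known. Python 3.11.15 and scipy 1.17.1 were used for levels and intervals.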

Additional observations from a re-analysis of the deposited data

Results flagged for a closer look

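In 6 of 84 groups of 4 dogs, 1 dog lay outside Dixon's 95% limit for 4 samples, where chance gives about 1 in 20 groups. Among FCER1G- CD8A sp cells with CCR7 or LEF1, GZMA was at 144 CPM in dog 4. The other dogs had 39.8 to 50.1 CPM. With FCER1G+ cells included, as in the comparison above, GZMA was at 70.9, 95.4, 45.6 and 220 CPM in dogs 1 to 4. In the CD4 sp gate, GZMA was at 2.96 CPM in the CXCR3+ cells and at 1.72 CPM in the remaining cells of dog 4, and at 0 in those of the other dogs. Each of these values rested on 3 UMIs. With the other dogs at 0, any UMI in a dog puts it outside the limit. Nothing is read from these flags, though both are counted among the 6. PRF1 was at 0 CPM in the 53 CXCR3+ cells of dog 1, against 29.3 to 31.3 CPM elsewhere, and at 3.65 CPM in its expanded CD4 sp clones, against 27.1 to 30.5 CPM. That expanded value rested on 2 UMIs. GZMB in FOXP3+ cells was at 18.8 CPM in dog 2 and at 6.67 to 8.13 CPM in the other dogs.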

How the results depend on the processing

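Of 486 alternative values of a member's log2 fold change, 422 kept their direction and side of the threshold, 41 newly passed, 12 no longer passed and 11 turned direction. Adding the dog as a block (replicate block) gave 18 of the new calls, such as GZMK in FCER1G+ cells at 0.00136, and changed no other call. It raised the counts of called genes to 2742 from 1427 for CD8A sp against CD4 sp, 460 from 163 for FCER1G, 1120 from 117 for CCR7 or LEF1, 979 from 35 for KLRK1, 1619 from 664 for GZMB, 441 from 192 for GZMB or GZMK alone, 519 from 24 for GZMK in CD4 sp, 545 from 88 and 1459 from 500 for expansion in CD8A sp and CD4 sp, and 36 from 1 for the difference between the gates. DESeq2 gave 245 (FCER1G), 338 (CCR7 or LEF1), 121 (KLRK1), 99 (GZMK), 193 (CD8A sp expansion) and 14 (difference between the gates). Without the filter on low counts there were 231 (CCR7 or LEF1), 98 (KLRK1), 393 (GZMB or GZMK alone), 54 (GZMK), 177 (CD8A sp expansion) and 2 (difference between the gates). In thinned cells there were 91 (FCER1G), 47 (GZMB or GZMK alone), 42 (CD8A sp expansion) and 3 (difference). Gates at 2 UMIs gave 19 (KLRK1) and 49 (CD8A sp expansion), clones by TRB and TRA gave 56, and expansion from 3 cells gave 891 in CD4 sp. Leaving out 1 dog gave 704 to 1268 for the gates, 67 to 159 for FCER1G, 11 to 178 for CCR7 or LEF1, 2 to 190 for KLRK1, 246 to 521 for GZMB, 81 to 132 for GZMB or GZMK alone, 3 to 33 for GZMK, 24 to 73 and 1 to 525 for expansion in CD8A sp and CD4 sp, and 0 to 0 for their difference. Why these counts moved was not tested.

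Directions turned for GZMB in FCER1G+ cells (-0.27 to 0.28 leaving out 1 dog, 0.28 without dog 4, 0.029 without the largest clones), FASLG in GZMB+ GZMK- cells (-0.39 to 0.011 leaving out 1 dog, 0.32 thinned), GZMK in expanded CD8A sp clones (-0.0061 to 0.25 leaving out 1 dog, -0.010 with gates at 2 UMIs), and, for the difference between the gates, GZMB (-0.42 to 0.54 leaving out 1 dog, -0.07 without dog 2, -0.10 thinned) and GZMA (-1.17 to 0.35 leaving out 1 dog, 1.14 thinned). None of these values passed the test in the first place. Requiring 2 UMIs, the CD8A sp shares were 17.5% for GZMA, 49.997% for GZMB, 14.0% for PRF1 and 7.86% for FASLG, and the CD4 sp shares 0.0307%, 0.434%, 0.504% and 0.241%. Thinning gave 52.5% for GZMB, 22.5% for PRF1 and 16.4% for FASLG in CD8A sp and 0.0962% for GZMA and 1.28% for GZMB in CD4 sp cells. At 2 UMIs the odds ratio of GZMB was 5.60 with GZMK and 9.56 with PRF1 in CD8A sp cells. In dog 1 the KLRK1+ and GZMK+ CD4 sp groups held 26 and 93 cells, and GZMA had too few UMIs to be tested within CD4 sp cells.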

Other observations

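Dividing cells, marked by at least 1 UMI of MKI67, were few and deep (154 CD8A sp cells with a median of 6899 UMIs and 344 CD4 sp cells with a median of 5632 UMIs). In the 3 dogs with at least 20 such CD8A sp cells, GZMB was at 1045, 1227 and 1024 CPM and FASLG at 23.3, 21.5 and 37.0 CPM, compared with FASLG at 67.3, 103.5 and 124 CPM in all CD8A sp cells of the same dogs. In MKI67+ CD4 sp cells GZMB was at 4.80, 36.3, 23.1 and 44.1 CPM and GZMK at 33.6, 172, 231 and 257 CPM. These groups overlap with those of the comparisons and were not tested.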
